A study of Rattus norvegicus with 18 samples.

Results

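Histones are the proteins around which DNA is wound. The genes described here are the 35 of 17337 rat genes in the files whose symbols begin with Hist and a digit, H2af, H3f3 or H1f. Of these, 24 are cluster genes (Hist) and 11 are replacement histone genes. By symbol the cluster genes comprise 4 of linker histone H1, 6 of H2A, 8 of H2B, 2 of H3 and 3 of H4, and 1 (Hist1h2ail1) whose class is uncertain. The replacement genes comprise 3 of H1, 7 of H2A and 1 of H3 (H3f3b).

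Cluster histone genes are transcribed mainly in S phase, when new DNA must be packed. Their messages are short, mostly lack introns, and end in a stem-loop in place of a poly(A) tail, so that libraries selected for poly(A) tails lose most of them while total RNA libraries keep them. Replacement histone genes carry introns more often. Most of them are polyadenylated and also expressed outside S phase, so that non-dividing cells can exchange histones in chromatin. Oligodendrocyte progenitor cells (OPCs) are glia of the brain and spinal cord that divide and mature into oligodendrocytes, the cells that make myelin.

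The libraries were made from total RNA of rat OPCs, sorted with magnetic beads, and form 6 groups of 3. Aged and neonate primary sorted cells made up 2 groups; for these the age rests on the letter of the title alone. The other 4 groups were aged or neonate OPCs on laminin-coated hydrogels called soft or stiff in the labels, with FGF and PDGF in the medium; the same growth text stands with the primary libraries. Ages in months or days, strain and gel stiffness in units of pressure are not given in the sources used here. No label ties the libraries of a group to different animals. A p-value here thus reflects only how these libraries scatter, and that scatter may be technical.

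Levels are scaled TPM: TPM is the share of a library's transcripts that come from a gene, corrected for length, and each library was divided by its own scaling factor. Depth was low, at 22200 to 105647 read pair equivalents per library outside ribosomal RNA and the other most abundant entries. A single read pair on a gene of 400 bases, about the size of a cluster gene, was worth 11.1 to 52.3 scaled TPM. Of the 35 genes, 32 passed the filter on low values, which asks for a TPM of 1 or more in 3 or more libraries (23 cluster and 9 replacement), and 25.3% of their 576 values were 0 (35.8% in aged and 14.9% in neonate libraries). A gene listed at 0 may still have been transcribed. H2afb3 and Hist3h3 were at 0 in all 18 libraries and H1fnt was above 0 in 2. Replicate 1 of each aged group covered olfactory receptor genes broadly (54.7% to 77.2% of 1197, against 0.251% to 39.2% in the other 15 libraries), and results were also computed without these 3 libraries. Aged soft replicates 2 and 3 were at 39.2% and 30.8%, and the neonate soft libraries at 2.01%, 18.9% and 9.86%. Leaving out replicate 1 thus does not remove this difference between the ages on soft gels.

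Cell type markers differed between the groups. Summed over 7 microglia markers the level was 1951 to 3105 scaled TPM in aged primary and 111 to 192 in neonate primary libraries, where Tmem119 was at 0. On gels it was 115 to 270.2 in aged and 34.4 to 95.6 in neonate libraries, with Cx3cr1 and Aif1 at 0 in both neonate gel groups. The 6 OPC markers summed to 62.7 to 172 in aged and 545 to 654 in neonate primary libraries, and to 49.1 to 400.3 against 578 to 1343 on gels. Endothelial markers (4) reached 27.1 to 109 in aged and 4.53 to 19.7 in neonate primary libraries, and 13.9 to 58.1 against 0 to 6.33 on gels. The ranges of aged and neonate primary libraries were 68.2 to 239 and 189.5 to 325 for mature oligodendrocyte markers (5), 0 to 54.9 and 68.4 to 116 for neuron markers (5), and 13.3 to 110.4 and 78.2 to 112 for astrocyte markers (5). On gels the astrocyte marker ranges were apart, at 4.01 to 85.6 in aged and 95.0 to 276 in neonate libraries on soft gels. On stiff gels they were 0 to 107.7 and 108.2 to 223. Those of mature oligodendrocyte and neuron markers overlapped on both gels. The part of other cell types in the histone results was not tested.

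The short length of the cluster genes bears on every value below. Their median length was 440.5 bases against 1368 for the replacement genes, 12 of 24 were under 450 bases, and 20 had a single exon. In rn6, the build of the files, 17 lay on chromosome 17 between 43422454 and 44841382, 3 on chromosome 2 and 4 on chromosome 10. Cluster genes of a class are near-identical copies, so reads may have been split between them and the values of single genes are uncertain, whereas sums over a class depend less on that split. The symbol of Hist1h2ail1 names H2A, but the RefSeq table lists an H3 synonym for it, and its length of 411 bases equals those of Hist2h3c2 and Hist3h3, while Hist1h2ak of H2A has 393.

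Promoter letters set cluster genes apart from replacement genes only in part. In the 250 bases before the RefSeq start sites (assembly GRCr8, 34 of the 35 genes matched), CCAAT, the letters of the CCAAT box, was present on either strand in 21 of 23 cluster and 7 of 11 replacement genes, and in 34.0% of all 33469 promoters of the table. TATAAA, the TATA box letters, was present in 12 of 23 cluster and 2 of 11 replacement genes, and in 12.9% of all. ATTTGCAT, the octamer known from H2B promoters, was present in 5 of 8 H2B and 4 of 6 cluster H2A genes, in H3f3b alone among replacement genes, and in 1.56% of all. A match is a description of letters and not of factor binding. The last 150 bases before the start are printed for 2 cluster genes called lower in aged cells, 1 in primary cells and 1 on gels (Hist1h2bk at chr17:47181941-47182090 and Hist1h2ak at chr17:47496128-47496277, respectively, both on the minus strand), for 2 replacement genes called lower in aged primary cells (H2afx at chr8:53568568-53568717 and H2afz at chr2:229028945-229029094, plus strand), and for H3f3b (chr10:101757637-101757786, minus strand), which was called in no comparison of ages. They read 5′ to 3′ in the direction of the gene, and capitals mark the 3 motifs on either strand, of which 0 overlap.
Hist1h2bk: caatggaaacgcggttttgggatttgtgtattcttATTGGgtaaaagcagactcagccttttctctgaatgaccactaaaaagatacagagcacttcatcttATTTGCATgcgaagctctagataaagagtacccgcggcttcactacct
Hist1h2ak: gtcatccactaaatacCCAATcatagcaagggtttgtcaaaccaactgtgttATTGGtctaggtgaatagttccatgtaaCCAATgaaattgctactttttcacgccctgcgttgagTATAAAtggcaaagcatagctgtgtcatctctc
H2afx: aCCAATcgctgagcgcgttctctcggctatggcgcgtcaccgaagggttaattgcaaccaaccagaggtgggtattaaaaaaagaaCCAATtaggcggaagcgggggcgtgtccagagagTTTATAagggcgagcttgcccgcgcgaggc
H2afz: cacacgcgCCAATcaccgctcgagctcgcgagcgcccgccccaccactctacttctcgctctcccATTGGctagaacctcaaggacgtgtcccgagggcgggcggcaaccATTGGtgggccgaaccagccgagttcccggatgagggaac
H3f3b: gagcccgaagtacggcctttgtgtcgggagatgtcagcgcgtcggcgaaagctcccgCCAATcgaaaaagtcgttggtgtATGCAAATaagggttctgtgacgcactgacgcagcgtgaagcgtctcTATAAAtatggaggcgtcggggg
H2afx and H2afz hold 2 and 3 copies of CCAAT in this stretch, Hist1h2ak holds 3 and Hist1h2bk 1. The octamer is present in Hist1h2bk and H3f3b.

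Cluster histone transcripts were lower in aged than in neonate cells in all 3 settings, primary, soft gel and stiff gel. The summed level of the 24 cluster genes was 3230, 4454 and 5280 scaled TPM in neonate primary libraries and 594, 1097 and 1378 in aged ones. On soft gels it was 4303, 4730 and 2344 in neonate and 722, 582 and 643 in aged libraries. On stiff gels the neonate libraries were at 3382, 4772 and 2749 and the aged ones at 549, 116 and 674. In each setting every neonate library was above every aged library, and the ratio of the means was 4.22 in primary cells, 5.85 on soft and 8.14 on stiff gels. With no scaling between libraries the 3 ratios were 6.44, 5.65 and 4.65, again without overlap, so that their order across the settings was the opposite one. In bulk RNA, fewer cells of a type and less RNA per cell cannot be told apart. The ratios remained above 1 with each library left out in turn, at 3.49 to 5.11, 5.12 to 6.96 and 5.94 to 10.9. Hist1h2ail1 alone made up 34.9% to 35.7% of the cluster sum in the neonate groups but 3.54% in aged primary, 21.0% in aged soft and 24.1% in aged stiff libraries. Without it the ratios were 2.85, 4.76 and 6.98, and again no groups overlapped.

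The replacement genes as a sum were lower in aged primary cells to a similar degree, with a ratio of neonate to aged of 4.33. Their sum was 1392, 1689 and 1437 in neonate and 249, 472 and 323 in aged primary libraries. It was 1182, 1144 and 711 against 382, 659 and 576 on soft gels (ratio 1.88) and 759, 1154 and 777 against 284, 188 and 814 on stiff gels (ratio 2.09), where the groups overlapped. On stiff gels the ratio was 1.09 with no scaling and 3.80 without aged stiff replicate 3. H2afz made up 35.8% to 68.5% of this sum. Without H2afz the ratios were 2.33 in primary cells, 1.27 on soft and 1.03 on stiff gels, with overlap on both gels, and on stiff gels the ratio was 0.844 without aged stiff replicate 2.

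Cluster and replacement levels within 1 library can be set against each other with no scaling factor, since both sums share it. The ratio of the cluster sum to the replacement sum was 3.64, 4.13 and 3.30 in neonate and 1.89, 0.883 and 1.12 in aged libraries on soft gels, and 4.46, 4.13 and 3.54 against 1.93, 0.616 and 0.827 on stiff gels. Every neonate gel library was above every aged gel library. In primary cells the ratio was 2.32, 2.64 and 3.67 in neonate and 2.38, 2.32 and 4.27 in aged libraries, and the groups overlapped. Leaving H2afz out of the replacement sum, the ratio in primary cells was 6.12, 9.62 and 9.27 in neonate and 3.38, 3.83 and 6.61 in aged libraries, with overlap, and it still separated the ages on both gels. Leaving Hist1h2ail1 out of the cluster sum moved the primary ratio the other way. The neonate to aged ratio of the cluster sum was then 2.85 in primary cells, below the 4.33 of the replacement sum. On gels the cluster sum without Hist1h2ail1 still had the higher ratio, 4.76 against 1.88 on soft and 6.98 against 2.09 on stiff gels.

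**Figure D1:**
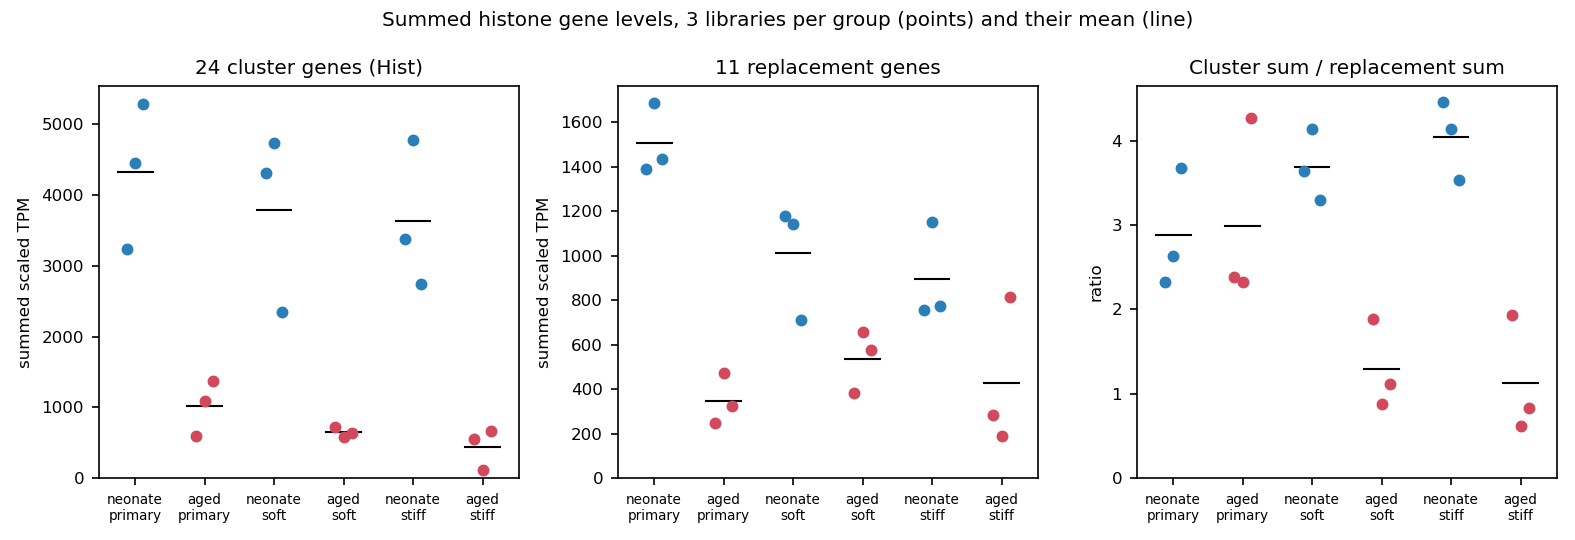
Summed scaled TPM of the 24 cluster genes, of the 11 replacement genes, and the ratio of the 2 sums, by group; points are libraries (blue neonate, red aged) and lines are means of 3. Cluster sums of aged libraries reach at most 1378 and those of neonate libraries start at 2344, while the ratio separates the ages on gels and not in primary cells.

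With Hist1h2ail1 left out of every class, H2B had the highest sum of the cluster classes in every neonate group. Hist1h2ail1 alone had means of 1512, 1352 and 1269 scaled TPM in neonate primary, soft and stiff libraries. The order of the classes thus depends on the class it is given, as do the H2A and H3 sums below. Cluster H2B genes summed to 1338 ± 283 scaled TPM in neonate primary libraries and 201 ± 81.3 in aged ones (SD, n = 3), to 1414 ± 443 and 237 ± 77.4 on soft gels, and to 1371 ± 183 and 194 ± 140.1 on stiff gels. Cluster H3 genes summed to 226 ± 74.0 and 24.5 ± 11.8 in primary libraries, and on stiff gels to 176 ± 87.9 in neonate libraries and to 0, 0 and 19.1 in aged ones. H4 genes summed to 263 ± 55.0 and 108 ± 19.6 in primary libraries, and to 299 ± 73.5 and 28.2 ± 48.8 on stiff gels. For cluster H2A in primary cells, 830.2 ± 369 in neonate and 549.6 ± 319 in aged libraries overlapped, while on stiff gels it was 401 ± 45.0 and 67.4 ± 69.8. Cluster H1 sums overlapped in primary cells at 153 ± 68.9 and 104 ± 73.6. Whether classes differed from each other was not tested.

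The primary cells were sorted as OPCs, but their microglia and OPC marker sums differed between the ages. The comparison of ages in primary cells is therefore not one of OPCs alone. In it, 6 of the 32 histone genes tested were lower in aged cells and 0 higher (limma, adjusted p under 0.05). Over all 15144 genes tested, 0.66% were called lower and 1.94% higher. The 6 were 4 cluster genes (Hist1h2ail1, Hist1h2bd, Hist1h2bk and Hist3h2a) and 2 replacement genes (H2afx and H2afz). The median difference was -1.95 on the log2(scaled TPM + 1) scale over the 32 genes and 0.69 over all genes (with quantile normalization -2.63 and 0.01), with -2.02 for cluster and -1.22 for replacement genes. Groups did not overlap for 13 histone genes that were lower and 1 that was higher, against 4.97% and 11.1% of all genes.

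Hist1h2ail1 (chromosome 17, 43814773 to 43815183) had the highest mean level of the 35 genes. It was at 1093, 1735 and 1707 scaled TPM in neonate and 23.2, 62.0 and 23.4 in aged primary libraries, a log2 difference of -5.47 ± 0.69 (SE; limma, adjusted p = 5e-05). Hist1h2bd, of H2B, was at 136, 162 and 162 in neonate and 0, 3.72 and 0 in aged primary libraries (limma, adjusted p = 0.000844), so that aged values lie at or near the level of no read. Hist3h2a, an H2A gene on chromosome 10 (45297603 to 45299155), stood at 141, 351 and 411 against 21.2, 30.4 and 56.7, and its difference was -3.00 ± 0.58 (SE; limma, adjusted p = 0.00396). Hist1h2bk of H2B, whose promoter holds the octamer, stood at 255, 142 and 593 against 0, 12.9 and 34.7 (limma, adjusted p = 0.0114). Its call was lost without aged primary replicate 1 (adjusted p = 0.11) or neonate primary replicate 3 (adjusted p = 0.0758), while the other 5 held whichever library was left out. None of these 4 cluster genes had overlapping groups.

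H2afx encodes the H2A variant that is phosphorylated beside DNA breaks, and H2afz encodes H2A.Z, a variant found at promoters. H2afx (chromosome 8, 48665652 to 48666981) stood at 184, 209 and 208 scaled TPM in neonate and 0, 18.5 and 6.83 in aged primary libraries (limma, adjusted p = 0.000354). H2afz (chromosome 2, 243105230 to 243107333) stood at 864, 1226 and 867 against 73.5, 185 and 114, a difference of -3.06 ± 0.62 (SE; limma, adjusted p = 0.00551). In both genes every aged primary library was below every neonate one.

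Several histone genes went against that pattern in primary cells. H3f3b, which encodes the replacement form of H3 (chromosome 10, 104573662 to 104575887), stood at 105, 46.6 and 108 in neonate and 78.7, 129 and 109 in aged primary libraries, with overlap (limma, adjusted p = 0.886). Hist2h2ab, of H2A, stood at 34.1, 50.3 and 32.5 in neonate and 43.1, 184 and 283 in aged libraries, and Hist1h2af, also of H2A, at 26.1, 0 and 229 against 41.9, 205 and 250.2 (limma, adjusted p = 0.575 and 0.618). These 2 genes made up 16.6% and 16.2% of the cluster sum of aged primary libraries and 0.902% and 1.97% of that of neonate ones. The testis-named linker histone gene Hist1h1t was at 0 in all neonate and at 1.74, 26.5 and 91.6 in aged primary libraries, and was called only without aged primary replicate 1 or without the 3 broad libraries (limma, adjusted p = 0.129, then 0.0413 and 0.0452). The summed level of 5 germ line markers was 13.9 to 29.6 in aged and 28.3 to 35.7 in neonate primary libraries. Of these, 4 (Ddx4, Dazl, Tnp1 and Prm1) were at 0 in all neonate primary libraries, so that the neonate sum was that of Sycp3. In the aged primary libraries only Prm1 was at 0 throughout. H2afv and H2afy, which encode another H2A.Z form and a macroH2A, had overlapping groups in primary cells. H2afv was at 21.1, 44.7 and 37.3 in neonate and 36.2, 20.2 and 29.5 in aged libraries, and H2afy at 21.1, 22.5 and 29.5 against 14.6, 33.4 and 27.5. Their differences were -0.23 ± 0.76 and -0.02 ± 0.72 (SE), errors that leave room for changes of more than 1 on this scale in either direction. The other macroH2A gene, H2afy2, went with the pattern instead, at 62.8, 37.4 and 81.1 in neonate and 8.40, 7.96 and 0 in aged libraries. Its difference was -3.74 ± 1.13 (SE, limma, adjusted p = 0.0803), and voom on read pair equivalents called it lower in aged cells (adjusted p = 0.000732). Limma also called H2afy2 with no scaling, quantile normalization, the replicate block and only the groups compared.

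**Figure D2:**
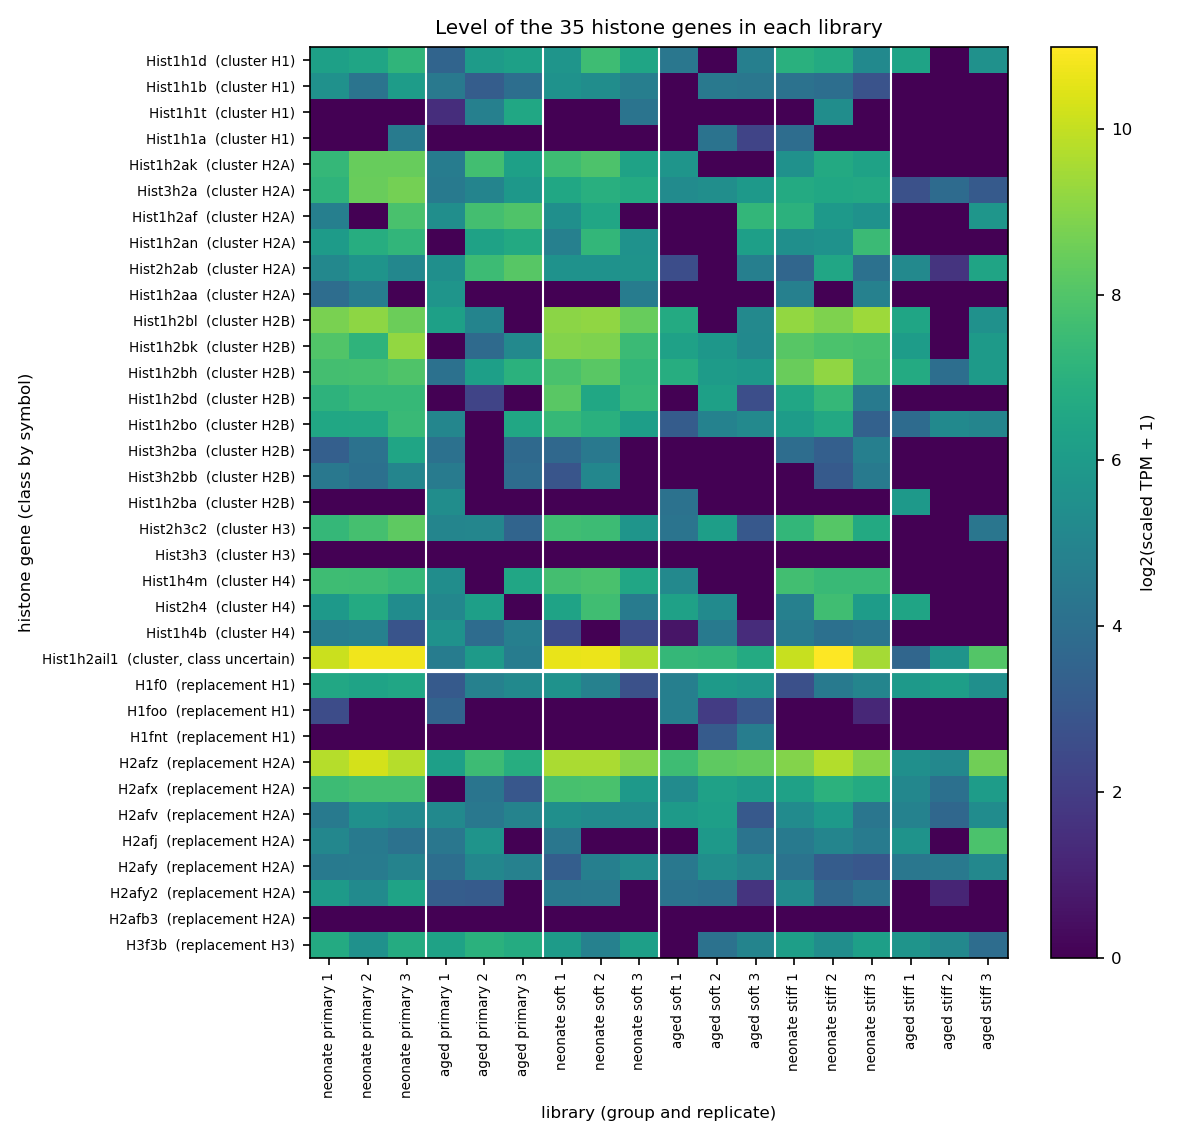
Level of each of the 35 histone genes (rows, grouped by class) in the 18 libraries (columns, grouped in threes), as log2(scaled TPM + 1); the white line separates cluster genes above from replacement genes below. Hist1h2ail1 and H2afz are bright in all 9 neonate libraries, and dark cells at 0 are more frequent in the aged libraries (35.8% against 14.9% of the values of the genes tested).

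On soft gels 4 of 32 histone genes were lower in aged cells and 0 higher (limma, adjusted p under 0.05), where 0.191% of all genes tested were called lower and 1.37% higher. All 4 were cluster genes. Hist1h2ak (chromosome 17, 44840990 to 44841382), of H2A, stood at 191, 241 and 79.1 scaled TPM in neonate and 51.5, 0 and 0 in aged libraries (limma, adjusted p = 0.00454). Hist1h2ail1 stood at 1591, 1631 and 835 against 156, 150.1 and 103, a difference of -3.26 ± 0.69 (SE; limma, adjusted p = 0.0114). The H4 gene Hist1h4m (chromosome 17, 44815688 to 44815995) stood at 206, 226 and 88.6 against 34.6, 0 and 0, and Hist1h2bd at 288, 93.7 and 162 against 0, 74.3 and 5.17 (limma, adjusted p = 0.012 and 0.032). Groups did not overlap for any of the 4, and over all 32 genes this held for 13 lower and 1 higher, against 3.68% and 16% of all genes. Of the 13, 12 were cluster genes. The median difference was -2.48 for cluster genes, 0.36 for replacement genes and 0.86 for all genes tested. Only the call of Hist1h2ak held whichever library was left out, and the count was 1 without neonate soft replicate 1 or without neonate soft replicate 2.

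The replacement genes on soft gels had no call in the main limma fit. H2afz was at 760.1, 780.4 and 496 in neonate and 191, 303 and 336 in aged libraries, which did not overlap (limma, adjusted p = 0.286). H2afx stood at 218, 225 and 59.0 against 38.5, 76.4 and 65.3, with overlap. H3f3b stood at 64, 27.2 and 72.3 against 0, 16.9 and 30.1, also with overlap (limma, adjusted p = 0.129). H2afz was called lower in aged cells by voom on read pair equivalents (adjusted p = 0.043). H3f3b was called lower without aged soft replicate 3 (limma, adjusted p = 0.0419).

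On stiff gels 11 of 32 histone genes were lower in aged cells and 0 higher (limma, adjusted p under 0.05), where 1.05% of all genes tested were called lower and 1.13% higher. They were 10 cluster genes and H2afz, and covered H1, H2A, H2B, H3 and H4. Groups did not overlap for 16 lower and 2 higher genes, against 4.79% and 5.61% of all genes. The median difference was -3.91 for cluster genes, -0.55 for replacement genes and 0.49 for all genes tested. The count was 7 without aged stiff replicate 2, the library with the lowest cluster sum, and 7 without neonate stiff replicate 2, the highest on stiff gels.

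Among core histone genes on stiff gels, Hist1h2ail1 was at 1056, 2030.4 and 721 scaled TPM in neonate and 11.2, 49.9 and 261 in aged libraries, a difference of -4.41 ± 0.69 (SE; limma, adjusted p = 0.000411). Hist2h3c2, an H3 gene on chromosome 2 (198417619 to 198418029), stood at 152, 273 and 102 against 0, 0 and 19.1 (limma, adjusted p = 0.000411). Hist3h2a stood at 103, 91.6 and 97.6 against 5.6, 13.2 and 7.58, a difference of -3.40 ± 0.58 (SE; limma, adjusted p = 0.000861). These 3 genes and Hist1h4m kept their calls under all settings tried. Hist1h4m was at 204, 174 and 174 in neonate libraries and listed at 0 in all 3 aged stiff libraries (limma, adjusted p = 0.000443).

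A further 5 cluster genes called on stiff gels were listed at 0 in all 3 aged libraries. Their neonate values were 45.6, 102 and 80.1 for Hist1h2ak (limma, adjusted p = 0.000702) and 91.0, 159.9 and 22.2 for Hist1h2bd (limma, adjusted p = 0.00104). The H2A gene Hist1h2an was at 43.4, 46.9 and 181 (limma, adjusted p = 0.0126). The H4 gene Hist1h4b was at 22.8, 15.4 and 18.4 (limma, adjusted p = 0.0237), and Hist1h1b, a linker histone gene, at 16.7, 14.5 and 6.10 (limma, adjusted p = 0.045). In these aged libraries 1 read pair on 400 bases was worth 30.0 to 52.3 scaled TPM, and less on the 669 bases of Hist1h1b and the 1296 bases of Hist1h4b, and the neonate stiff levels of all 5 genes correspond to few read pairs, 0.367 to 9.73 equivalents per library.

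Hist1h2bh and H2afz were the other genes called on stiff gels. Hist1h2bh of H2B was at 357, 566 and 205 in neonate and 104, 14.5 and 61.8 in aged libraries (limma, adjusted p = 0.019). H2afz stood at 494, 849.5 and 499.6 against 43.7, 33.7 and 386, a difference of -2.82 ± 0.62 (SE; limma, adjusted p = 0.00951). Both calls were lost without aged stiff replicate 2 (adjusted p = 0.13 and 0.0762) and without neonate stiff replicate 2 (adjusted p = 0.125 and 0.0703). The calls of Hist1h2bh and H2afz were also lost without neonate stiff replicate 1 (adjusted p = 0.0675) and without aged stiff replicate 1 (adjusted p = 0.0579), respectively. That of Hist1h1b was lost without any 1 of the 6 libraries (adjusted p = 0.052 to 0.181). That of Hist1h4b was lost without any of the 3 neonate libraries or aged stiff replicate 2 (adjusted p = 0.0525 to 0.106), and that of Hist1h2an without neonate stiff replicate 3 (adjusted p = 0.0843).

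**Figure D3:**
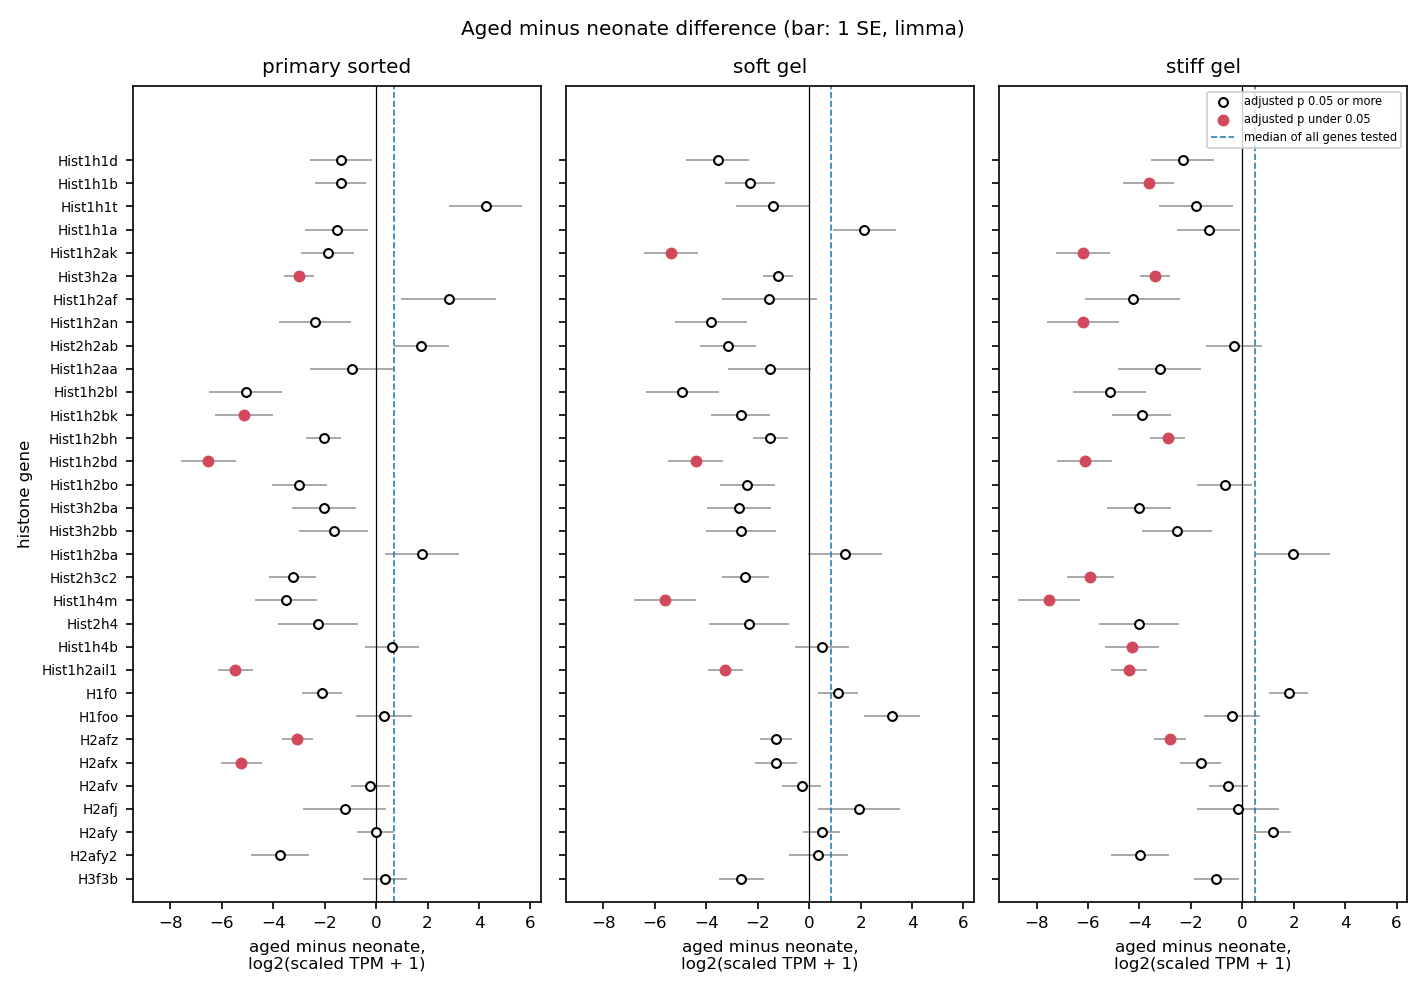
Aged minus neonate difference on the log2(scaled TPM + 1) scale for the 32 histone genes tested, with 1 SE from limma, in primary cells, on soft and on stiff gels. Red points passed the threshold (6, 4 and 11 genes, all lower in aged cells) and the dashed line is the median of all genes tested (0.69, 0.86 and 0.49).

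The most abundant H2B and H1 cluster genes did not pass the test between ages in any setting in the main limma fit, but alternatives called them. Hist1h2bl, of H2B, stood at 433, 555 and 369 scaled TPM in neonate and 74.1, 30.4 and 0 in aged primary libraries (limma, adjusted p = 0.0514), at 538, 580.2 and 344 against 104, 0 and 35.5 on soft gels (adjusted p = 0.0796), and at 594, 464 and 670.0 against 88.3, 0 and 45.6 on stiff gels (adjusted p = 0.0543). Its groups did not overlap in any setting. Voom on read pair equivalents called it lower in aged primary, soft and stiff cells (adjusted p = 4.39e-05, 0.000345 and 0.00192). Limma also called it in each setting with the replicate block and without the 3 broad libraries. Hist1h1d, a linker histone gene, stood at 74.3, 88.1 and 143 against 10.6, 63.6 and 73.9 in primary cells (limma, adjusted p = 0.698). On soft gels it stood at 52.8, 189 and 87.4 against 19.5, 0 and 26.0 (adjusted p = 0.142), and on stiff gels at 127, 104 and 35.9 against 82.7, 0 and 46.4 (adjusted p = 0.415). Its groups overlapped on stiff gels and were apart in the other settings. Voom called Hist1h1d lower in aged cells on soft gels (adjusted p = 0.0391).

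H1f0, a replacement linker histone known to accumulate in cells that stop dividing, did not follow the cluster genes on gels. It was at 95.9, 81.5 and 89.1 scaled TPM in neonate and 7.73, 27.4 and 36.0 in aged primary libraries. On stiff gels the order was opposite, with 5.36, 21.3 and 31.4 in neonate and 59.6, 70.8 and 43.5 in aged libraries. Both pairs of groups were apart and neither passed the test in the main limma fit (adjusted p = 0.187 and 0.304). Voom on read pair equivalents called H1f0 lower in aged primary cells (adjusted p = 0.0096). On soft gels 47.4, 27.7 and 5.70 overlapped with 26.2, 62.1 and 54.4.

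**Figure D4:**
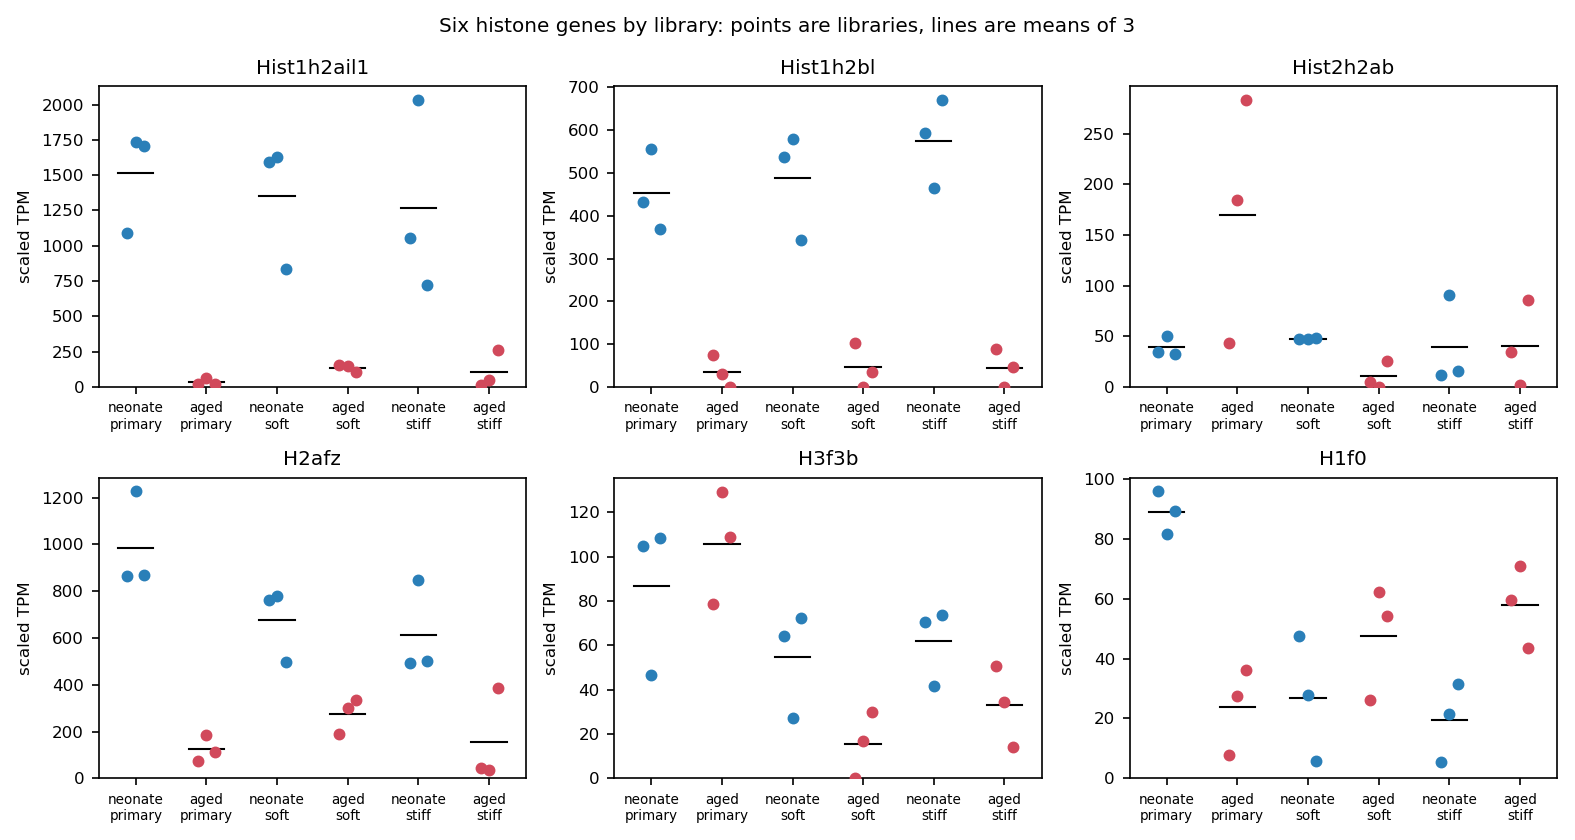
Scaled TPM of 3 cluster genes (Hist1h2ail1, Hist1h2bl and Hist2h2ab) and 3 replacement genes (H2afz, H3f3b and H1f0) by group; points are libraries (blue neonate, red aged) and lines are means of 3. Hist1h2ail1 is at 721 or more in every neonate library and at most 261 in any aged one, whereas Hist2h2ab and H3f3b reach their highest values, 283 and 129, in aged primary libraries.

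Culture was compared with primary cells as the mean of both gels, and this comparison shares its primary libraries with the comparison of ages above. In aged cells 1 histone gene was higher and 2 were lower on gels, where 0.337% and 0.773% of all genes were called. H2afx rose from 0, 18.5 and 6.83 scaled TPM in primary libraries to 38.5, 76.4 and 65.3 on soft gels and 33.3, 15.4 and 65.9 on stiff gels, a difference of 3.05 ± 0.69 (SE; limma, adjusted p = 0.0219), with overlap. Hist1h2ak fell from 23.7, 201 and 75.9 to the values given above, with 1 of 6 aged gel libraries above 0 (limma, adjusted p = 0.00201). Hist1h4b was at 47.4, 13.7 and 26.0 in aged primary libraries, at 0.552, 21.8 and 1.65 on soft gels and at 0 on stiff gels (limma, adjusted p = 0.0457). None of the 3 calls held whichever library was left out: the count was 1 without aged primary replicate 3 and 6 without aged soft replicate 3.

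H3f3b and Hist2h2ab were lower on gels than in aged primary cells without passing the test in the main limma fit. Voom on read pair equivalents called both (adjusted p = 0.00891 and 0.0417). Hist2h2ab was also called with no scaling, quantile normalization and the replicate block (limma, adjusted p = 0.0398, 0.0473 and 0.047). H3f3b was below its aged primary values in all 6 aged gel libraries, at a difference of -2.73 ± 0.75 (SE; limma, adjusted p = 0.079). Hist2h2ab was at 5.12, 0 and 25.7 on soft gels and 34.7, 2.13 and 85.5 on stiff gels (limma, adjusted p = 0.053), with overlap. Aged primary libraries are those with the high microglia marker sum of 1951 to 3105, and the part of these cells in the values of both genes was not tested.

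In neonate cells 0 histone genes passed the test between culture and primary cells by limma (3 had an unadjusted p under 0.05), where 0.099% of all genes were called. By voom on read pair equivalents 3 were called, H1f0, H2afy2 and Hist3h2a, all lower on gels. Neonate H1f0 was at 47.4, 27.7 and 5.70 on soft gels and 5.36, 21.3 and 31.4 on stiff gels, all below its 3 primary values, a difference of -2.26 ± 0.67 (SE; limma, adjusted p = 0.363). H2afy2, a macroH2A gene, was at 62.8, 37.4 and 81.1 in neonate primary libraries and at 0 to 36.9 on gels.

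The difference between ages in the response to culture was tested as an interaction, and 0 histone genes passed by limma (7 had an unadjusted p under 0.05), where 0.112% of all genes were called. H1f0 and H2afx had interactions of 3.56 ± 0.95 and 3.78 ± 0.98 (SE; limma, adjusted p = 0.229 and 0.204), and voom called these 2. Without aged soft replicate 1 limma called 1 gene, Hist1h2ak (adjusted p = 0.0356).

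Soft and stiff gels were compared to ask whether the surface alters the cells, and no histone gene passed the test at either age. The gel libraries are those of the comparison of ages. In aged cells 0 of 32 were called by limma and 0 by voom (9 had an unadjusted p under 0.05 in limma), where 0.0792% of all genes were called. The median difference, soft minus stiff, was 0.76 for histone genes and 0.59 for all genes. Hist3h2a was at 38.7, 41.9 and 58.4 on soft gels and 5.6, 13.2 and 7.58 on stiff gels, a difference of 2.33 ± 0.58 with no overlap (SE; limma, adjusted p = 0.143). Without aged stiff replicate 3 limma called 2 genes higher on soft gels, H2afz and Hist2h3c2 (adjusted p = 0.0102 and 0.0131).

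In neonate cells 0 of 32 histone genes were called between soft and stiff gels by limma and 0 by voom, (1 had an unadjusted p under 0.05 in limma), and 0% of all genes were called. The median difference was 0.01 for histone genes and 0.02 for all genes. Neonate cluster sums were 3793 ± 1272 (SD, n = 3) on soft gels and 3634 ± 1035 on stiff ones. The interaction of stiffness and age had 0 calls by limma and by voom (5 had an unadjusted p under 0.05 in limma), where 0.0066% of all genes were called.

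Genes that act on histone messages, deposit histones or replicate DNA were followed beside the histone genes. Few genes were called in any comparison, at most 1.94% of all genes in 1 direction, so 0 calls in a short list say little. Of 15 genes of histone message processing 11 were tested, and 0 were called by limma in any comparison. Slbp, which binds the stem-loop, was at 7.26, 0 and 22.1 scaled TPM in neonate and 13.4, 0 and 32.2 in aged primary libraries. Npat, which activates cluster histone transcription, stood at 0.743, 5.75 and 1.23 against 0.465, 0 and 0, too low to compare. Of 30 histone chaperone genes 27 were tested and 0 were called; Hira, which deposits replacement H3, stood at 4.84, 9.12 and 10.6 against 11.7, 0 and 6.06, and Asf1b at 7.08, 0 and 0 against 10.6, 5.99 and 0. Chaf1a, of the chaperone that works at replication forks, was not analysed here. In primary cells the median difference between ages was 0.08 for message processing genes and -0.01 for chaperones, beside 0.69 for all genes.

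The summed level of S phase genes separated the ages in primary cells and overlapped on both gels, and the difference between these settings in the sum was not tested. The 26 genes summed to 1035 to 1381 scaled TPM in neonate and 317 to 469 in aged primary libraries. On gels they summed to 439 to 863 in neonate and 389.7 to 508 in aged libraries on soft, and to 423 to 547 and 411 to 592 on stiff gels, where the cluster histone sums did not overlap. Gins2, of the GINS complex of the replication fork, held much of the sum, with 616 ± 80.3 in neonate and 106 ± 32.9 in aged primary libraries and 120 ± 41.9 and 219 ± 77.7 on stiff gels (SD, n = 3). Without it the ages remained apart in primary cells, at 471 to 673 and 182 to 399, and overlapped on both gels, at 346 to 700 and 242 to 438 on soft and 316 to 392 and 191 to 340 on stiff gels. On stiff gels the neonate mean was then above the aged one, 352 against 270, whereas with it the means were 472 and 489. Between the ages 2 of 26 were lower and 1 higher in aged primary cells, and 0 were called on either gel (limma). The 2 lower genes were Rrm2 and Gins2 (limma, adjusted p = 5.05e-05 and 0.00393). Rrm2, of ribonucleotide reductase, stood at 173, 300 and 280 in neonate and 12.7, 0 and 0 in aged primary libraries. It stood at 278, 279 and 130.2 in neonate and 98.8, 117 and 45.2 in aged soft libraries, and at 63.5, 205 and 144 against 17.2, 6.81 and 64.4 on stiff gels. Against primary cells, culture raised Rrm2 in aged and lowered Gins2 in neonate cells (limma, adjusted p = 0.00281 and 0.0127). Gins2 was also called in the interaction of culture and age (limma, adjusted p = 0.0458). Tk1, thymidine kinase, was the gene higher in aged primary cells, at 75.5, 77.4 and 90.5 against 2.49, 9.20 and 10.6 (limma, adjusted p = 0.0319). Of 14 mitosis genes 0 were called in any comparison. In primary cells 12 of them were lower and 2 higher in aged cells. Among the higher ones Mki67 had 28.0, 50.2 and 15.9 scaled TPM in aged and 7.73, 9.33 and 4.23 in neonate primary libraries (limma, adjusted p = 0.326). Of the 26 S phase genes 19 were lower and 7 higher in aged primary cells. The median differences there were -1.25 for mitosis and -1.06 for S phase genes, beside 0.69 for all genes. On soft gels they were -0.71 and -0.30 beside 0.86, and on stiff gels -0.42 and 0.21 beside 0.49.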

How the data were processed

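Oligodendrocyte progenitor RNA was measured in 18 libraries in 6 groups of 3, made with a stranded total RNA kit for picogram inputs, per the labels' protocols. The submitters' processing notes name Trimmomatic, HISAT2, StringTie and Bowtie without role. Per the file headers, transcripts of a UCSC rn6 annotation were quantified with StringTie 1.3.2d, with no strand option. The authors deposited TPM, FPKM and mean coverage per transcript. TPM was summed per gene and scaled by size factors (median of ratios over the 1644 genes detected in every library). Read pair equivalents are coverage times exon length divided by 300 bases.

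The 15144 genes that reached a TPM of 1 in 3 or more libraries were fitted on log2(scaled TPM + 1) in limma 3.58.1 (R 4.3.3), with a mean for each of the 6 groups and a variance trend, and p was adjusted over all genes (Benjamini and Hochberg, threshold 0.05). The fit was checked on simulated data. The 35 members, the gene lists (histone message processing, chaperones, S phase, mitosis and cell type markers) and the tests were chosen with earlier results of these data known. Per-library values are given for every histone gene called in any comparison, for the most abundant gene of each class and for others named after their values were seen (Hist2h2ab, Hist1h2af, Hist1h1t, H2afy2, H2afv and H2afy). Promoters are RefSeq sequences of GRCr8, and gene coordinates are those of the files in rn6. All 35 genes matched the RefSeq table by accession, 11 with the same symbol. Replicate numbers were not taken to pair samples, because the headers carry library names unlike the titles. Alternatives were each library left out, a block for the replicate number, voom, fits of the groups compared alone, a TPM filter of 5 or none, quantile normalization, no scaling, and a pseudocount of 0.1; the 3 broad libraries, known from earlier results, were also left out. For the sums, leaving out a library or the most abundant gene (Gins2 for S phase) was chosen after seeing the data.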

Additional observations from a re-analysis of the deposited data

Results flagged for a closer look

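H1f0, the replacement linker histone gene, had opposite differences between ages in primary cells and on stiff gels. Aged minus neonate was -2.10 on the log2(scaled TPM + 1) scale in primary cells, where every aged library was below every neonate one, and 1.80 on stiff gels, where every aged library was above every neonate one. Neither difference passed the threshold in the main limma fit (adjusted p = 0.187 and 0.304), and the difference between stiff gels alone and primary cells was not tested. Voom on read pair equivalents called the difference in primary cells (-2.47, adjusted p = 0.0096). With both gels averaged, the interaction of culture and age was 3.56 ± 0.95 for this gene (SE; limma, adjusted p = 0.229), and it was called by voom on read pair equivalents (adjusted p = 0.0121).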

How the results depend on the processing

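Of 24 calls of single histone genes, 9 held under every alternative run and 12 held whichever library was left out; none of 369 recomputed values changed direction and 77 lost the call. The counts of histone genes called (6 in primary cells, 4 on soft and 11 on stiff gels, and 3 for culture of aged cells) moved as follows, and the cause was not tested. The share of all genes called under each alternative is not given here. A higher or lower count is thus not shown to be particular to histone genes. With no scaling they were 10 in primary cells, 7 on stiff gels and 1 for culture of neonate cells. With a pseudocount of 0.1 they were 2 on soft gels and 1 for culture of aged cells. With voom they were 12 in primary cells, 8 on soft gels, 3 for culture of neonate cells and 2 for the interaction of culture and age. With only the groups compared they were 2 on soft gels, 7 on stiff gels and 0 for culture of aged cells; this setting was not run for the interaction of culture and age, which uses all 6 groups. Without the 3 broad libraries 1 gene was called between gels in aged cells (Hist1h1b) and 1 in the interaction of culture and age (Hist1h2ak), and 19 of 24 single calls held. Leaving out 1 library gave 1 to 4 on soft gels, 7 to 12 on stiff gels, 1 to 6 for culture of aged cells, 0 to 2 between gels in aged cells and 0 to 1 for the interaction of culture and age. With the replicate block, 8 genes were called in primary cells, 5 on soft gels, 12 on stiff gels and 4 for culture of aged cells, and 23 of 24 single calls held; deviations of same-numbered libraries were not correlated above 0.1 in all 3 pairs for any 2 groups, so the numbers were not taken to pair libraries.

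For the neonate to aged ratio of sums in primary cells, no scaling gave 6.44 for cluster genes, 4.34 without Hist1h2ail1, 6.63 for replacement genes and 3.52 without H2afz. Read pair equivalents gave 4.38 and 3.33 for the sums without Hist1h2ail1 and without H2afz. On stiff gels the replacement ratio without H2afz, 1.03, was below 1 with no scaling (0.580), without aged stiff replicate 1 (0.969), without aged stiff replicate 2 (0.844) and without neonate stiff replicate 2 (0.988), and leaving out 1 library gave 0.844 to 1.43. Several cluster genes called on stiff gels rest on few read pairs, so that depth limits what single genes can show.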
